A study of Arabidopsis thaliana with 12 samples.

Results

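Transcripts of 5 genes of cell division were followed through the DNA content classes of root cortex nuclei of Arabidopsis thaliana. They were the Aurora kinase genes AUR1 (AT4G32830), AUR2 (AT2G25880) and AUR3 (AT2G45490), AT1G63100, which encodes SCL28, and AT2G36200, a kinesin-5 gene. The 5 genes were chosen by name with earlier results of these data known, AT2G36200 having drawn attention by its change in 8C against 4C, and each had 1 probe set in the probe annotation, out of 13350 genes with a probe set of their own. Plants were of the Col-0 ecotype and 5 days old, and every group carried the reporter pCO2:YFP-H2B, in which the CO2 promoter, active in the cortex, drives a fluorescent histone. Nuclei with the reporter were sorted by DNA content, from 2C, that of an unreplicated diploid nucleus, through 4C and 8C to 16C, each a doubling of the one before. RNA from the nuclei was read on Affymetrix ATH1 arrays, 3 for each class and 12 in all, and this number limits the precision. Excised roots were combined before sorting, and the replicates are labelled as biological with no plant or sort named, so p-values measure the spread between these arrays, which may in part be technical.

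In a dividing cell, transcripts of mitotic genes build up in G2 and are removed after division. A nucleus that enters the endocycle copies its DNA again without dividing. A 4C nucleus can thus be one in G2 before mitosis or one already in the endocycle, whereas 8C and 16C nuclei have passed through the endocycle. Aurora kinases phosphorylate proteins of the spindle and the chromosomes. AUR1 and AUR2 are close relatives that act at the spindle and the forming cell plate, and AUR3 acts at centromeres and phosphorylates histone H3. SCL28 is a transcription factor of the GRAS family that is made in G2 and M and raises genes of SIAMESE-RELATED inhibitors of cyclin-dependent kinases. Kinesin-5 motors crosslink and slide antiparallel microtubules of the spindle and the phragmoplast.

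Some facts of the arrays touch every result. Values are log2 signals from RMA, a method that makes the distributions of arrays alike, and no detection call goes with them. Across probe sets, r between arrays was 0.937 to 0.974 within 2C and 0.982 to 0.996 within 16C, so the classes were not equally spread. Replicates 1 and 2 of 16C were the closest pair of all, and averaging them to 1 array is among the alternatives. AT1G62500, the locus listed here as CO2, had signals of 3.78 to 4.70 on the 12 arrays, which exceeded between 9.91% and 38.3% of the probe sets, so the gene whose promoter drives the reporter was itself among the dim ones. Of the other marker lists, 0 genes of stele, root cap and root meristem had a probe set of their own.

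All 5 genes had their highest class mean in 4C, which held for 15.3% of all 22746 probe sets. By the F test, in which AT2G36200 is included as a description, 4 of the 5 differed between the classes in limma (adjusted p under 0.05), against 17.3% of all probe sets. AUR3 did not pass (limma adjusted p = 0.171). The count was 5 without 4C replicate 3. Where a transcript is lower in a class, a smaller share of nuclei with it and less of it in each nucleus cannot be told apart.

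**Figure D1:**
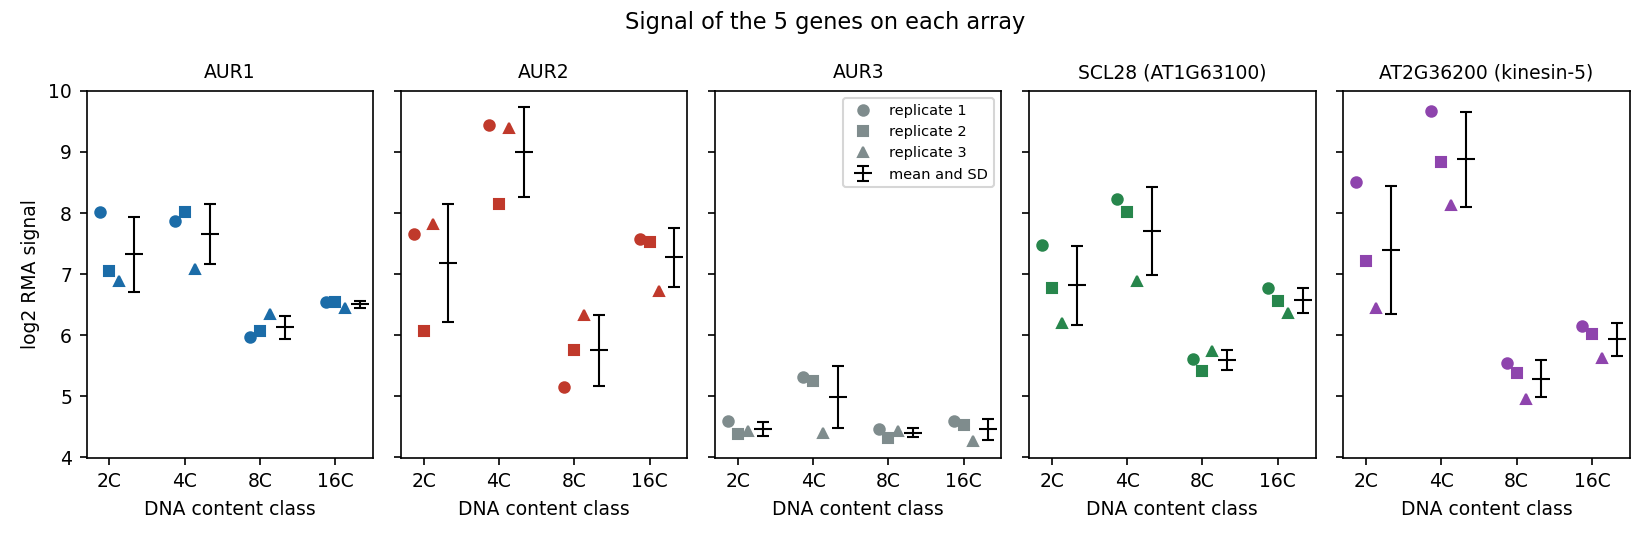
Log2 RMA signal (y axis) of the 5 genes on each of the 12 arrays, by DNA content class (x axis), with the mean and SD of 3 arrays in black. In 4C every gene has its highest mean, and in 8C the arrays of AUR1, AUR2, SCL28 and AT2G36200 all lie below those of 4C.

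Of the Aurora kinases, AUR2 spanned the widest range. AUR2 had log2 signals of 7.65, 6.07 and 7.82 in 2C, 9.45, 8.14 and 9.39 in 4C, 5.16, 5.76 and 6.33 in 8C, and 7.58, 7.52 and 6.72 in 16C. All 4C arrays lay above all others, and 2C replicate 2 lay below its class and among the 8C arrays. From 2C to 16C the class means were 7.18 ± 0.96, 8.99 ± 0.74, 5.75 ± 0.59 and 7.27 ± 0.48 (SD, n = 3 each). In the order of means 4C, 16C, 2C and 8C, the neighbours did not pass in limma, with adjusted p = 0.104 for 16C against 4C, 0.922 for 16C against 2C and 0.0747 for 8C against 2C. The last of these was 0.0171 without 2C replicate 2.

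AUR1 had a smaller range and a similar order. Its signals were 8.02, 7.05 and 6.89 in 2C, 7.86, 8.02 and 7.09 in 4C, 5.98, 6.06 and 6.34 in 8C, and 6.54, 6.54 and 6.44 in 16C. The 2C and 4C arrays overlapped, and all of them lay above all 8C and 16C arrays. From 2C to 16C its means were 7.32 ± 0.61, 7.66 ± 0.50, 6.13 ± 0.19 and 6.51 ± 0.055 (SD, n = 3 each). In the order 4C, 2C, 16C and 8C, none of the 3 neighbouring pairs passed in limma (adjusted p = 0.666, 0.0974 and 0.729), and 1 of them, 16C against 2C, had an unadjusted p under 0.05.

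AUR3, the Aurora kinase of centromeres, was in the lower part of the signal range. It had 4.59, 4.38 and 4.43 in 2C, 5.32, 5.25 and 4.40 in 4C, 4.47, 4.31 and 4.44 in 8C, and 4.59, 4.52 and 4.26 in 16C, which exceeded from 23.8% to 50.02% of the probe sets of an array. Only 4C replicates 1 and 2 stood above the rest, and the third 4C array lay among those of the other classes. The means of the classes from 2C to 16C were 4.47 ± 0.11, 4.99 ± 0.51, 4.41 ± 0.080 and 4.46 ± 0.17 (SD, n = 3 each). In 8C against 4C the difference was -0.58 ± 0.21 (SE), with limma adjusted p = 0.111. It was 0.00396 without 4C replicate 3 and 0.0263 with array weights. At such signals the range left below is small, and no detection call tells whether the transcript was above background.

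SCL28 followed AUR1 in its order of classes. Its signals were 7.48, 6.77 and 6.19 in 2C, 8.22, 8.02 and 6.88 in 4C, 5.61, 5.42 and 5.74 in 8C, and 6.77, 6.57 and 6.37 in 16C. The 8C arrays lay below all arrays of the other classes, while those of 2C, 4C and 16C ran into each other except that all 4C arrays were above all of 16C. Class means, again from 2C to 16C, were 6.82 ± 0.64, 7.71 ± 0.72, 5.59 ± 0.16 and 6.57 ± 0.20 (SD, n = 3 each). In the order 4C, 2C, 16C and 8C, neighbours had limma adjusted p = 0.311, 0.685 and 0.362.

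The kinesin-5 gene AT2G36200 had 8.51, 7.21 and 6.44 in 2C, 9.67, 8.83 and 8.13 in 4C, 5.54, 5.38 and 4.95 in 8C, and 6.15, 6.02 and 5.63 in 16C. The 2C arrays were spread over 2.07 log2 units, the most of any gene and class among the 5, with replicate 1 among the 4C arrays. The arrays of 8C and 16C lay apart from each other and below all of 2C and 4C. Its means from 2C to 16C were 7.39 ± 1.05, 8.88 ± 0.77, 5.29 ± 0.30 and 5.93 ± 0.27 (SD, n = 3 each). Because of that earlier attention, its differences that involve 4C or 8C are a description and are given with no p.

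Whether transcripts of division genes drop where DNA is copied without division is asked by 8C against 4C. Of the 4 genes other than AT2G36200, limma called 3 lower, beside 5.17% of all probe sets, and the same 3 had all arrays of 8C below those of 4C, beside 14.1% of all probe sets. AT2G36200, noticed for this very change, makes the count 4 of 5 in both. AUR2 fell to 5.75 ± 0.59 in 8C, against 8.99 ± 0.74 in 4C, a change of -3.24 ± 0.52 (log2, SE, limma adjusted p = 0.00588), or 9.48-fold, the 20th largest fall of 22746 probe sets. SCL28 fell by 2.12 ± 0.37 (limma adjusted p = 0.0081), or 4.34-fold. AUR1 fell by 1.53 ± 0.30 (limma adjusted p = 0.013), or 2.88-fold. AT2G36200 was lower by a change of -3.59 ± 0.50, or 12.03-fold. The gap between the highest 8C array and the lowest 4C array was 1.81 log2 units for AUR2, 1.14 for SCL28, 0.75 for AUR1 and 2.59 for AT2G36200. With AT2G36200 included, the median change of the 5 was -2.12, beside 0.04 over all probe sets.

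Some measures of RNA quality moved with this step. The actin probe sets differed, 3' minus 5', by 3.42 ± 0.12 in 8C and 3.90 ± 0.11 in 4C (log2, SD, n = 3 each). The bacterial poly-A spikes averaged 8.997 ± 1.08 in 8C and 10.5 ± 0.58 in 4C. The GAPDH probe sets differed, 3' minus 5', by 5.05 ± 0.17 in 8C and 5.20 ± 0.32 in 4C, with overlapping arrays. With this actin difference added to the model, 0 of the 5 were called in limma, as were 0 of all 22746 probe sets, of which 1744 had an unadjusted p under 0.05. The changes were then -1.79 ± 0.80 for AUR2, -1.49 ± 0.65 for SCL28, -1.03 ± 0.53 for AUR1, -0.23 ± 0.37 for AUR3 and -2.30 ± 0.79 for AT2G36200, so the sizes were smaller and the standard errors larger. With the spikes added instead, AT2G36200 was the 1 gene called, beside 1.68% of all probe sets. Since AT2G36200 was noticed for this very change, nothing is read from that call. The changes with the spikes in the model were -3.19 ± 0.75 for AUR2, -1.62 ± 0.47 for SCL28 and -1.24 ± 0.41 for AUR1. The part of RNA quality in the result was not tested beyond these fits. AUR1 was also not called without 4C replicate 1 (limma adjusted p = 0.0596) or without 8C replicate 1 (0.0517).

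**Figure D2:**
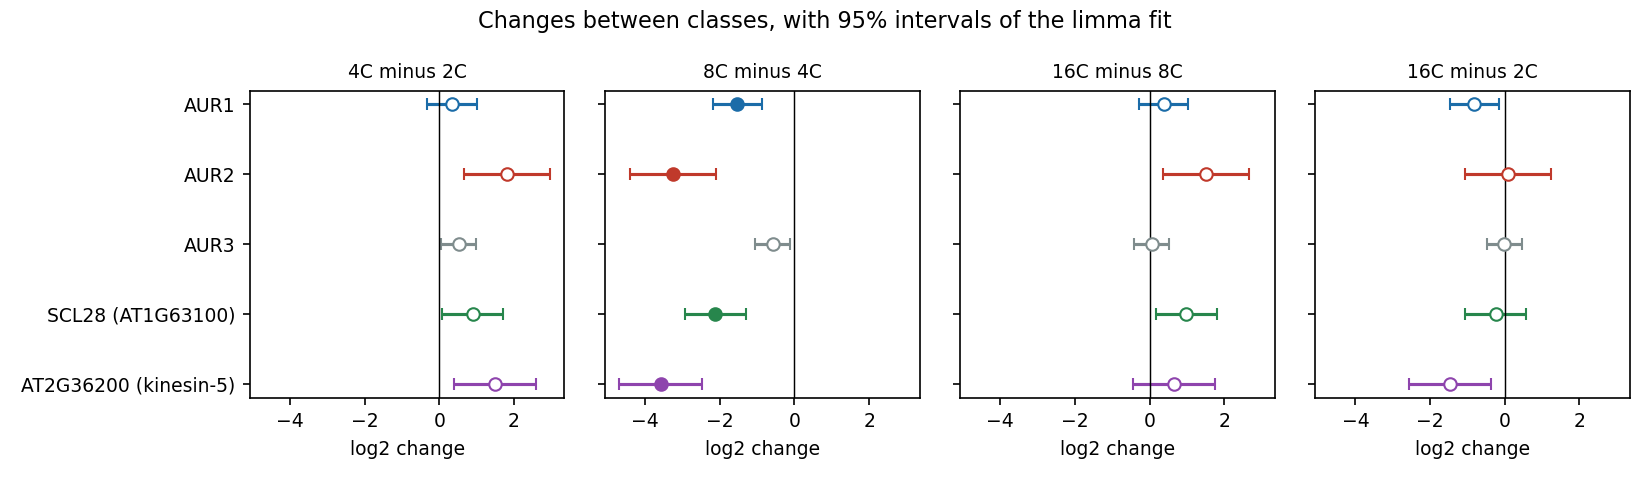
Log2 change of each gene (x axis) in 4 comparisons of classes, with 95% intervals of the limma fit over all arrays and filled points where the adjusted p was under 0.05. Only 8C minus 4C has filled points, for all genes but AUR3, and the points of 4C minus 2C all lie above 0.

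For 4C against 2C, the first doubling, limma called 0 of the 5 and 0.602% of all probe sets, and 4 had an unadjusted p under 0.05. In a limma fit with an intensity trend and robust variances, 3134 of all 22746 probe sets had such a p. The differences were 1.82 ± 0.52 for AUR2 (limma adjusted p = 0.151), 0.89 ± 0.37 for SCL28 (0.311), 0.52 ± 0.21 for AUR3 (0.297) and 0.34 ± 0.30 for AUR1 (0.666), and 1.49 ± 0.50 for AT2G36200. Only for AUR2 did all 3 arrays of 4C lie above those of 2C, as they did for 7.76% of all probe sets. Without 4C replicate 3, AUR3 was called (limma adjusted p = 0.0474). Overlap of arrays takes no account of replicate number, by which these classes deviated together at r = 0.0998, 0.41 and 0.43. With a block for replicate number in the model, 0 of the 5 were called, beside 0.356% of all probe sets. This comparison and 8C against 4C share the 4C arrays, so a high 4C class enters both. Actin 3' minus 5' was 3.83 to 4.03 in 4C and 4.38 to 4.70 in 2C, and GAPDH and the spikes overlapped. Changes with actin in the model were 3.77 ± 0.997 for AUR2, 1.74 ± 0.81 for SCL28 and 0.996 ± 0.47 for AUR3. AUR1 had 1.005 ± 0.66 and AT2G36200 3.22 ± 0.98. All 5 changes and standard errors were larger than without actin. Actin or the spikes in the model gave 0 calls of the 5, beside 0% and 0.492% of all probe sets. RNA quality was not tested beyond these fits.

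In 16C against 8C, the further doubling within the endocycle, all arrays of 16C lay above all of 8C for AUR1, AUR2 and SCL28. This held for 10.2% of all probe sets. AT2G36200, noticed on the same 8C arrays, makes the count 4 of 5. None of the 5 passed in limma, where 0.259% of all probe sets were called, and 2 had an unadjusted p under 0.05. Such a p was found for 2330 of all 22746 probe sets in the fit with an intensity trend and robust variances. AUR2 had 7.27 ± 0.48 in 16C and 5.75 ± 0.59 in 8C, a difference of 1.52 ± 0.52 (limma adjusted p = 0.306), with a 95% interval of 0.37 to 2.68. SCL28 had 6.57 ± 0.20 in 16C and 5.59 ± 0.16 in 8C, a difference of 0.98 ± 0.37 (limma adjusted p = 0.362). The differences were 0.38 ± 0.30 for AUR1, 0.05 ± 0.21 for AUR3 and 0.65 ± 0.50 for AT2G36200. Root hair markers moved with the same step: of 5 listed genes 2 had a probe set, EXPA7 and EXPA18, and their summed log2 signal was 11.2 to 11.5 on the 16C arrays and 9.48 to 10.1 on the 8C arrays. Their part in the result was not tested. Both 3' minus 5' measures of RNA quality were higher on all 16C arrays. Actin had 3.66 to 3.98 in 16C and 3.34 to 3.56 in 8C, and GAPDH had 5.48 to 5.67 and 4.85 to 5.15. With the actin difference in the model, changes were 0.39 ± 0.68 for AUR2, 0.49 ± 0.55 for SCL28 and -0.0094 ± 0.45 for AUR1. AUR3 had -0.22 ± 0.32 and AT2G36200 -0.35 ± 0.67, and 0 of the 5 were called. With the spikes instead, all signs stayed positive. The part of RNA quality was not tested beyond these fits.

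Both endocycled classes were also set against 2C. For 8C against 2C, limma called AUR1 and SCL28 lower of the 4 genes other than AT2G36200, beside 11.6% of all probe sets. AT2G36200, noticed on the same 8C arrays, makes the count 3 of 5. AUR1 fell by 1.19 ± 0.30 (limma adjusted p = 0.0182). SCL28 fell by 1.23 ± 0.37 (limma adjusted p = 0.038), a call that held in 11 of 23 alternative settings. AT2G36200 was lower, with a change of -2.10 ± 0.50. AUR2 had 5.75 ± 0.59 in 8C and 7.18 ± 0.96 in 2C, with overlapping arrays. The count was 1 without 8C replicate 1 or without 8C replicate 3, where 14.4% and 15.6% of all probe sets were called in either direction, and 0 where only the arrays of both classes were fitted, with 10.6% of all.

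The actin and spike measures of RNA quality moved with this comparison too. Actin 3' minus 5' was 3.42 ± 0.12 in 8C and 4.55 ± 0.16 in 2C (log2, SD, n = 3 each). The poly-A spikes were at 8.997 ± 1.08 in 8C and 10.9 ± 0.52 in 2C. GAPDH 3' minus 5' had means in the other order, 5.05 ± 0.17 in 8C and 4.85 ± 0.38 in 2C, with overlapping arrays. With the actin difference in the model, limma called 0 of the 5 and 0 of all probe sets, of which 977 had an unadjusted p under 0.05. The change of AUR1 was then -0.02 ± 1.08, and the signs of SCL28, at 0.25 ± 1.32, and AT2G36200, at 0.91 ± 1.60, were turned, with standard errors larger than the values. With the spikes in the model, 0 of the 5 were called, beside 7.54% of all probe sets. The part of RNA quality was not tested beyond these fits.

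For 16C against 2C, limma called 0 of the 5 and 14.2% of all probe sets, and 2 of the 5 had an unadjusted p under 0.05. Such a p was found for 6831 of all 22746 probe sets in the fit with an intensity trend and robust variances. The same 2 of the 5, AUR1 and AT2G36200, had all arrays of 16C below those of 2C, as did 16.8% of all probe sets. AUR2 had nearly the same mean in both, 7.27 ± 0.48 in 16C and 7.18 ± 0.96 in 2C, but the 95% interval of the difference, -1.06 to 1.25, reaches past a doubling in both directions. AUR1 had 6.51 ± 0.055 in 16C and 7.32 ± 0.61 in 2C, a difference of -0.81 ± 0.30 (limma adjusted p = 0.0974). AT2G36200 had a difference of -1.45 ± 0.50 (limma adjusted p = 0.0779), and was called without 2C replicate 3 (0.0216). Actin 3' minus 5' was 3.66 to 3.98 in 16C and 4.38 to 4.70 in 2C. GAPDH had 5.48 to 5.67 and 4.42 to 5.13, and the spikes 8.47 to 9.20 and 10.5 to 11.5. With actin in the model, changes were 2.38 ± 1.13 for AUR2, -0.03 ± 0.75 for AUR1 and 0.56 ± 1.12 for AT2G36200. With actin or the spikes, 0 of the 5 were called, beside 0% and 2.23% of all probe sets. EXPA7 and EXPA18 were both called higher. The part of these measures and markers was not tested further.

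In 16C against 4C, 4 of the 5 had all arrays of 16C below those of 4C, against 13.5% of all probe sets, and AT2G36200 was the 1 gene called lower in limma, where 1.87% of all probe sets were. Since AT2G36200 was noticed on the same 4C arrays, nothing is read from this call or from its place in the count of 4. Of the other 4 genes, 0 were called, all of them with an unadjusted p under 0.05. Such a p was found for 4070 of all 22746 probe sets in the fit with an intensity trend and robust variances. The signal of AT2G36200 was 5.93 ± 0.27 in 16C and 8.88 ± 0.77 in 4C, a difference of -2.94 ± 0.50. The differences of AUR2, AUR1 and SCL28 were -1.72 ± 0.52, -1.15 ± 0.30 and -1.14 ± 0.37 (limma adjusted p = 0.104, 0.0651 and 0.127). The count of called genes leaned on single arrays and settings, and the share of all probe sets called in either direction moved with it. It was 4 of 5 without 4C replicate 3 (5.50% of all), 2 without 2C replicate 1 (6.55%), 0 without 4C replicate 1 (1.20%), 0 without 16C replicate 2 (1.05%) and 5 with array weights (14.7%). The poly-A spikes were at 8.94 ± 0.40 in 16C and 10.5 ± 0.58 in 4C, and with them in the model 0 of the 5 were called, beside 0.123% of all probe sets. The summed signal of EXPA7 and EXPA18 was 11.2 to 11.5 on the 16C arrays and 9.58 to 10.01 on the 4C arrays, and both were called higher (limma adjusted p = 0.00657 and 0.00466). The part of these markers was not tested.

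Whether the Aurora kinases differed from each other in their pattern over the classes was tested on the difference of their log2 signals within each array. A difference within an array does not compare levels between genes, but its movement over classes shows that the signals changed unequally. AUR3 lay at 4.26 to 5.32 on all arrays with little range below, so a difference to AUR3 can drop where the other gene falls and AUR3 has no room to, and for those 2 pairs this cannot be told apart from an unequal change of transcripts. From 2C to 16C, AUR1 minus AUR3 was 2.85 ± 0.51, 2.67 ± 0.11, 1.72 ± 0.20 and 2.05 ± 0.12 (SD, n = 3 each, exact permutation p = 0.00227 over 369600 assignments, adjusted p = 0.00682 over 3 pairs). AUR2 minus AUR3 was 2.71 ± 0.90, 4.00 ± 1.06, 1.34 ± 0.61 and 2.81 ± 0.31 in 2C, 4C, 8C and 16C (exact permutation p = 0.0133, adjusted p = 0.0200). The adjusted p of AUR2 minus AUR3 was 0.0544 without 4C replicate 1 and 0.0718 without 4C replicate 3. Leaving out 8C replicate 1 gave 0.0969, and leaving out 8C replicate 2 gave 0.0568.

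AUR2 minus AUR1 was -0.14 ± 0.97, 1.34 ± 1.11, -0.38 ± 0.41 and 0.77 ± 0.42 from 2C to 16C, and did not pass (exact permutation p = 0.104, adjusted p = 0.104). The adjusted p was 0.0466 without 2C replicate 3 and 0.0214 without 4C replicate 2. The class patterns of these close relatives were thus not shown to differ over all 12 arrays.

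**Figure D3:**
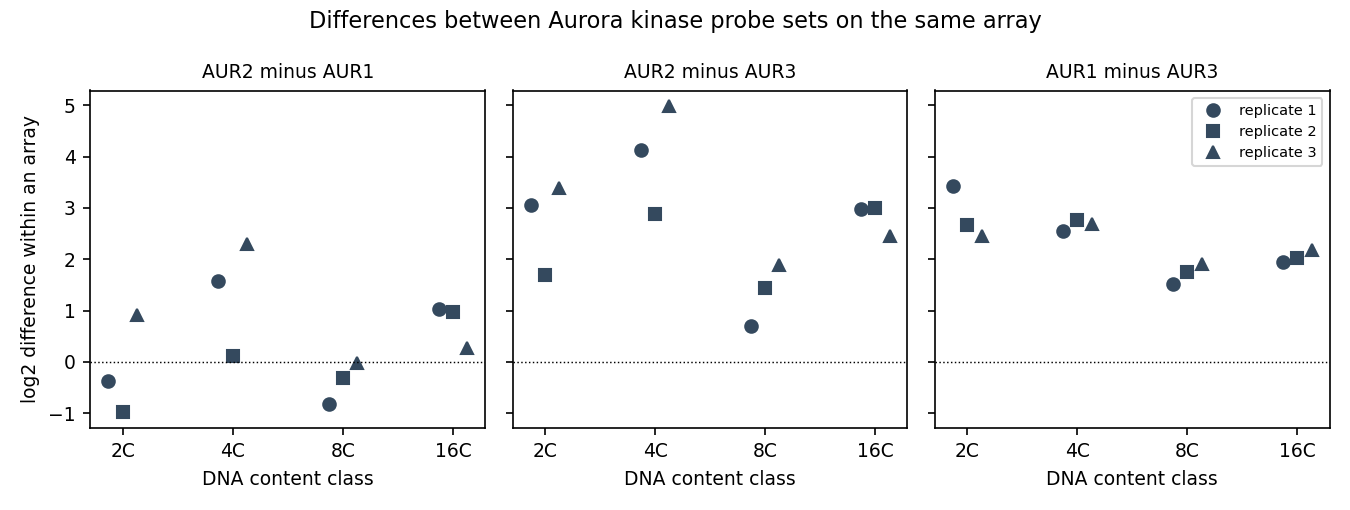
Difference of the log2 signals of a pair of Aurora kinases within each array (y axis) by DNA content class (x axis), with 1 symbol per replicate number. AUR1 minus AUR3 is lower in 8C and 16C than in 2C and 4C on all arrays, whereas AUR2 minus AUR1 spreads widely within 2C and 4C.

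In 2C, 4C and 16C, at least 4 of the 5 genes had their highest or lowest signal on the same array. In 8C at most 3 of them did. In 4C, replicate 3 was the lowest array for 4 of the 5, and in 2C replicate 1 was the highest for 4 of the 5. AUR2 was the exception both times, with 9.39 on 4C replicate 3, close to its highest 4C array, and its highest 2C signal on replicate 3. In 16C, replicate 3 was the lowest array for all 5. Across probe sets, 16C replicates 1 and 2 were at r = 0.996, and replicate 3 was at 0.982 with either. In 8C, replicates 1, 2 and 3 were the lowest for 2, 2 and 1 of the genes and the highest for 2, 0 and 3. How often all probe sets had their extremes on these arrays was not counted, so nothing is read from these counts about the 5 genes. After the class means were taken off, the 6 pairs among AUR1, AUR3, SCL28 and AT2G36200 correlated at r = 0.64 to 0.92 over the 12 arrays, while the 4 pairs of AUR2 were at -0.05 to 0.08. The r of the 6 pairs exceeded those of 92.7% to 99.5% of all probe sets with the same gene. These correlations are descriptions over arrays that share their classes and preparation. Without 4C replicate 3, AUR2 correlated with the others at 0.18 to 0.52, and the range of the 6 pairs was 0.49 to 0.87.

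**Figure D4:**
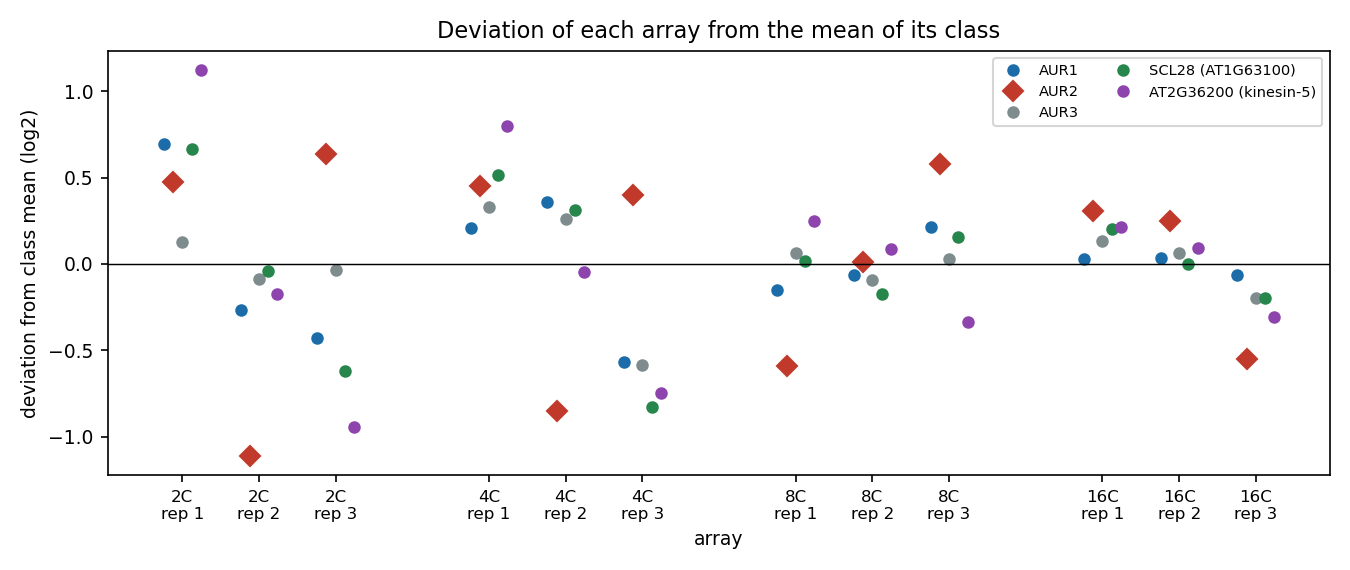
Deviation of each of the 12 arrays (x axis) from the mean of its class, in log2 units (y axis), for the 5 genes. AUR2, drawn as diamonds, is low on 2C replicate 2 and 4C replicate 2 and high on the third replicates of 2C, 4C and 8C, where SCL28 and AT2G36200 are mostly low.

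The genes most like each of the 5 were sought among 13508 other probe sets with a single gene, by Pearson's r over the 12 arrays, given as descriptions. For AUR1 these were IQD30 (r = 0.986), CDC27a (0.973), a subunit of the anaphase-promoting complex that marks mitotic proteins for removal, and AT3G56590 (0.972). IQD30 had class means of 5.98, 6.23, 4.90 and 5.16 in 2C, 4C, 8C and 16C. For AUR2 they were AT1G03920 (0.976), AT1G43020 (0.967) and AT1G31720 (0.964), and AT1G03920 had means of 9.96, 11.9, 8.98 and 10.4. For AUR3 they were ATMPK13, a mitogen-activated protein kinase (0.960), AT2G22610 (0.954) and AT5G15510 (0.941).

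For SCL28 the nearest were AT5G48310 (0.966), TOPII (0.957), a topoisomerase that untangles DNA, and WYR (0.956), a homolog of the inner centromere protein that binds Aurora kinases. TOPII had means of 5.66, 7.13, 4.79 and 5.44 in 2C, 4C, 8C and 16C. For AT2G36200 they were VPS2.2 (0.976), of the ESCRT machinery for membrane scission, AT5G48310 (0.970) and FU (0.968). AT5G48310 was thus on the lists of both SCL28 and AT2G36200, with means of 6.71, 8.08, 5.21 and 6.09. The 3 lists of the Aurora kinases shared no gene with each other. AUR2 correlated with the other 4 of the 5 genes at 0.57 to 0.76, and the 6 pairs without AUR2 were at 0.72 to 0.94, so the ranges overlapped.

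Other genes of the same pathways were read from lists, of which few members had a probe set of their own. Beside the Aurora kinases, 10 genes of the chromosomal passenger complex, spindle assembly and checkpoint were listed and 4 measured, and all 4 had their highest mean in 4C. In 8C against 4C, 2 of the 4 fell and 2 did not pass, with a median change of -0.61 beside 0.04 over all probe sets. BUBR1, a checkpoint protein that delays anaphase, fell to 4.24 ± 0.27 in 8C, against 5.61 ± 0.64 in 4C (change -1.37 ± 0.33, limma adjusted p = 0.029). WYR fell by 0.39 ± 0.09 (limma adjusted p = 0.0225) at signals of 3.601 to 4.098 on all arrays, lower than those of AUR3. The count of 2 became 1 without 8C replicate 2. It became 0 when 4C replicate 1 or 2 was left out, also when 8C replicate 1 or 3 was left out, and 0 with either measure of RNA quality in the model. Of 23 listed B- and A-type cyclins, B-type cyclin-dependent kinases, their CKS partners and MYB3R factors, 0 were measured.

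All 3 other loci listed as kinesin-5 genes were measured, and 0 were called in 8C against 4C, although 3 had an unadjusted p under 0.05 in limma. Such a p was found for 5948 of all 22746 probe sets in the fit with an intensity trend and robust variances. AT2G37420 had 3.73 ± 0.24 in 8C and 5.35 ± 1.08 in 4C, a difference of -1.62 ± 0.51 (limma adjusted p = 0.0728). AT3G45850 had 5.88 ± 0.12 in 8C and 6.63 ± 0.59 in 4C, a difference of -0.75 ± 0.30 (0.142), and AT2G28620 had 3.92 ± 0.15 in 8C and 4.64 ± 0.39 in 4C, a difference of -0.71 ± 0.25 (0.108). All 3 had their highest mean in 4C. Of the 3, 2 were called without 2C replicate 1, and likewise 2 without 4C replicate 3. Whether AT2G36200 changed more than they did was not tested.

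Of 11 further kinesins of mitosis and cytokinesis 2 were measured, and AT4G14330 fell by 0.45 ± 0.10 in 8C against 4C (limma adjusted p = 0.024), a call lost without any one of the same 4 arrays. KEU, a Sec1-type protein of vesicle fusion at the cell plate, was the 1 measured gene of 10 for cytokinesis. It had 10.3 ± 0.35 in 8C and 9.73 ± 0.22 in 4C, a difference of 0.60 ± 0.19 (limma adjusted p = 0.079), and it was called without 8C replicate 2 (0.0274). In 8C against 2C, KEU was called higher, by 0.78 ± 0.19 (limma adjusted p = 0.0174).

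In 8C against 4C, 0 measured relatives of SCL28 and 0 genes of the inhibitor family it is known to raise were called. Of 30 other GRAS genes 11 were measured, and in this comparison limma called 0 of them, while 2 had an unadjusted p under 0.05. Such a p was found for 5948 of all 22746 probe sets in the fit with an intensity trend and robust variances. The median change of the 11 was 0.14 beside 0.04 over all probe sets. The smallest p was that of AT2G37650, with a difference of 0.41 ± 0.16 (limma adjusted p = 0.144), and 0.0418 without 8C replicate 2. Of 17 listed SIM and SIAMESE-RELATED genes and CCS52 activators of the anaphase-promoting complex, 9 were measured. Here limma called 0 in 8C against 4C, with 0 at an unadjusted p under 0.05 and a median change of -0.04. The smallest p there was that of AT5G02420, with a difference of -0.32 ± 0.16 (limma adjusted p = 0.231). In the other comparisons the GRAS list and the SIM list had 1 call each, named here after its values were seen. AT3G50650 of the GRAS list fell by 0.32 ± 0.10 in 8C against 2C (limma adjusted p = 0.0437), and AT5G59360 of the SIM list rose by 0.42 ± 0.12 in 16C against 2C (limma adjusted p = 0.0494).

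**Figure D5:**
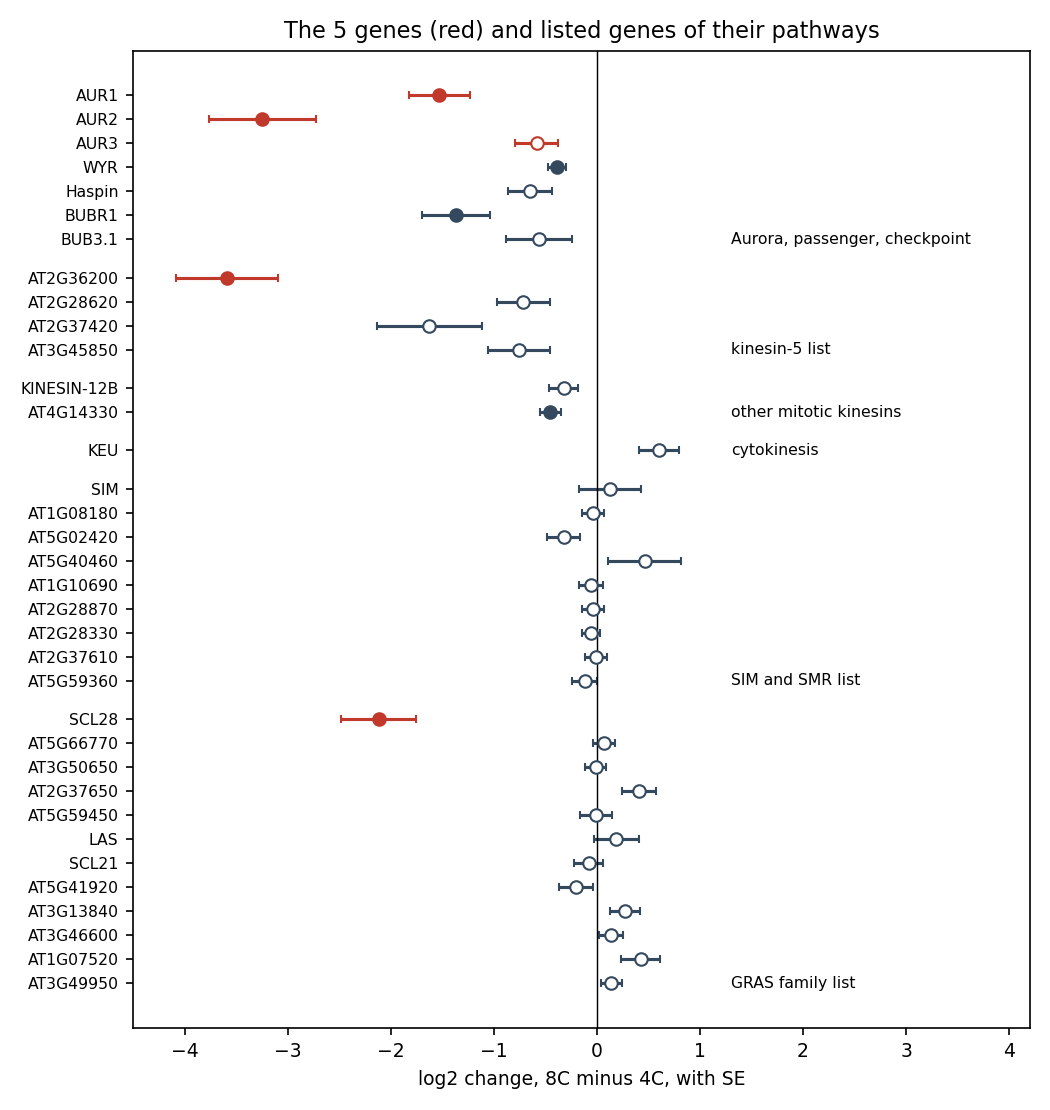
Log2 change in 8C minus 4C with its SE (x axis) for the 5 genes in red and the other measured genes of the lists in dark grey, with filled points where the limma adjusted p was under 0.05. All Aurora, checkpoint and kinesin points lie left of 0, KEU lies right of it, and the SIM and SMR and GRAS points other than SCL28 lie on both sides.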

How the data were processed

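Signals were deposited on a log2 scale, and the authors made them with RMA, per the submitters' processing notes. Its version is not given in the sources used here. Before that, 45 to 100 ng of RNA from about 200000 nuclei went through 2 rounds of amplification, per the labels' protocols. Array medians lay between 5.23 and 5.37.

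Probe sets were named through the platform annotation, updated by Entrez ID to TAIR10.1, which matched 13436 of 13513 single-gene probe sets. All 12 arrays and 22746 probe sets, 64 controls left out, entered 1 linear model (limma 3.58.1, R 4.3.3), with Benjamini-Hochberg adjustment over all probe sets. Errors of changes are moderated standard errors. In simulated data for 8C against 4C over 22746 probe sets, 97% of changes of 2 and 63% of changes of 1 (log2) were recovered, and 8.05% of calls were false, above the nominal rate.

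The genes and lists were chosen with earlier results of these data known. Named genes were the 5, the 3 most correlated with each, up to 4 called members of each list by p in 8C against 4C (or the 1 with the smallest p) and all listed kinesin-5 genes. A gene with several probe sets was represented by the brightest. Reference and cell type lists gave 0 calls in 8C against 4C, with the smallest p for AP2M, AT1G62500, EXPA18 and AT4G28100. Same-numbered arrays of different classes deviated together at r = -0.49 to 0.49. All 3 pairs exceeded 0.1 only between 16C and 4C (0.16, 0.43 and 0.49), a pairing that the labels do not state. Between 4C and 2C they were 0.0998, 0.41 and 0.43, the lowest just short of 0.1. A replicate block changed no count of the 5 genes in either comparison, and the main fit took no classes as paired. Alternatives were a replicate block, variance models, array weights, a filter on dim probe sets, other scalings, fewer arrays, averaged 16C arrays and RNA quality covariates. Genome positions and sequences were not used here.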

Additional observations from a re-analysis of the deposited data

How the results depend on the processing

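The 5 genes were recalculated under 11 other settings and without each of the 12 arrays in turn. AUR3 had values in 22 of these 23 settings, as the filter on the dimmest 40% of probe sets left it out. Called genes of the 5 in 8C against 4C numbered 4, with 0 under the actin covariate, 1 under the poly-A spike covariate and 3 to 5 without single arrays. Array weights called AUR3 as well (limma adjusted p = 0.0263), beside 14.8% of all probe sets. In 8C against 2C they numbered 3, with 0 for only the arrays compared and 0 under either covariate, and 1 to 3 without single arrays. In 16C against 4C the count was 1, with 5 under array weights, 0 under the spike covariate, 2 each without the dimmest 40% of probe sets, with cyclic loess, with scaling to reference genes and with only the arrays compared, and 0 to 4 without single arrays. Without single arrays it was 0 to 1 in 4C against 2C, 0 to 1 in 16C against 2C and 4 to 5 for the F test, which gave 1 under the actin and 0 under the spike covariate and was not run for only the arrays compared. The replicate block turned 0 calls into 1 in 16C against 2C, AT2G36200 (limma adjusted p = 0.0142), and changed no other count of the 5 genes, that of 16C against 4C included. Counts of the 5 include AT2G36200. Of all probe sets tested, 0% to 16.5% were called in 8C against 4C and 0.123% to 14.7% in 16C against 4C across these settings. The checkpoint list's 2 calls were 0 without the dimmest 40%, for only the arrays compared and under either covariate, 1 with reference genes, and 0 to 3 without single arrays. The other mitotic kinesins' 1 call was 0 in those 5 settings, and 0 to 1 without single arrays. The kinesin-5 list's 0 calls were 3 under array weights and 0 to 2 without single arrays, and the GRAS list's 0 calls were 0 to 1. Adjusted p without single arrays was 0.0214 to 0.206 for AUR2 minus AUR1, 0.00506 to 0.0969 for AUR2 minus AUR3 and 0.000974 to 0.0226 for AUR1 minus AUR3. Signs turned in 25 cases, none called. Under the actin covariate, 16C minus 8C was -0.0094 for AUR1, -0.22 for AUR3 and -0.35 for AT2G36200. With it, 8C minus 2C was 1.98 for AUR2, 0.76 for AUR3, 0.25 for SCL28 and 0.91 for AT2G36200, and 16C minus 2C was 0.54 for AUR3, 0.74 for SCL28 and 0.56 for AT2G36200. Under the spike covariate, 8C minus 2C was 0.29 for AUR3, and 16C minus 2C was 0.36 for AUR3 and 0.40 for SCL28. Scaling to reference genes, which moved the median of all probe sets in 8C minus 2C to 0.18 and in 16C minus 2C to 0.19, gave AUR3 0.067 and 0.15 there, and array weights gave AUR3 0.088 in 16C minus 2C. AUR2 in 16C minus 2C was -0.043 with 16C replicates 1 and 2 averaged. Without single arrays, 16C minus 2C spanned -0.46 to 0.41 for AUR2, -0.073 to 0.091 for AUR3 and -0.56 to 0.087 for SCL28, and for AUR3 16C minus 8C spanned -0.012 to 0.15 and 8C minus 2C -0.10 to 0.0014. The cause of these changes was not tested. With 3 arrays a class and no detection calls, AUR3 and other dim probe sets allow the least.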
